A study of Mus musculus with 12 samples.

Results

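The 9 genes described here mark T cells and natural killer (NK) cells: *Cd3d*, *Cd3e*, *Cd3g*, *Cd4*, *Cd8a*, *Foxp3*, *Nkg7*, *Gzma* and *Xcl1*. They were taken by symbol from the 22947 genes of the epididymal white adipose tissue (eWAT) FPKM table, and all 9 had values. RNA was measured in 12 libraries, 3 per group, each from a male C57BL/6J mouse that was 21 weeks old after 16 weeks of diet. The ND group received a normal diet. The HFD group received a high-fat diet, on which the other two groups were also kept. The CLE group received that diet containing an ethanol extract of chrysanthemum leaves at 1.5% by weight, and the LU group received it with luteolin at 0.003% by weight, a plant flavonoid. The mice were housed singly, and the methods call the 3 sequenced per group representative, so they were a selection. Libraries are named by group and mouse number.

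T cells carry an antigen receptor that signals through the CD3 chains, and the coreceptors CD4 and CD8 divide them into helper and cytotoxic cells. Regulatory T cells, defined by the transcription factor FOXP3, are a well known population of lean visceral fat, and cytotoxic T cells are known to enter fat in obesity. NK cells and cytotoxic T cells share granule proteins, such as those encoded by *Nkg7* and *Gzma*, and both release the chemokine XCL1, whose receptor XCR1 sits on a type of dendritic cell.

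The genes lie on 6 chromosomes of GRCm38. *Cd3g* (chromosome 9, 44969572 to 44980431, minus strand) and *Cd3d* (44981786 to 44987339, plus strand) lie head to head, followed by *Cd3e* (44998740 to 45009627, minus strand). *Cd4* (124864692 to 124888221, minus strand) and *Cd8a* (71373427 to 71379173, plus strand) are both on chromosome 6. *Foxp3* is on chromosome X (7573644 to 7595245, plus strand), *Nkg7* on chromosome 7 (43437073 to 43438249, plus strand), *Gzma* on chromosome 13 (113093825 to 113100981, minus strand) and *Xcl1* on chromosome 1 (164931644 to 164935527, minus strand). RefSeq promoters (GRCm38.p6) matched 8 of the 9 genes, and *Cd4* had no entry. Those of *Xcl1*, *Nkg7* and *Gzma* are shown because *Xcl1* carries the only calls below and the other two are the cytotoxic genes to compare it with. Each is the 250 bases before the start, 5′ to 3′ on the strand of the gene, with the Runx core TGTGGT, here on the other strand as ACCACA, in capitals.
*Xcl1*, chr1:164935523-164935772, minus strand: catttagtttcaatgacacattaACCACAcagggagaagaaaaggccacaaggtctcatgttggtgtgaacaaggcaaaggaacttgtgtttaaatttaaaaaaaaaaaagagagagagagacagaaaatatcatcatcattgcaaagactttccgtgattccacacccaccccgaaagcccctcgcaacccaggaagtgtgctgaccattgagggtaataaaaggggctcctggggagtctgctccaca
*Nkg7*, chr7:43436888-43437137, plus strand: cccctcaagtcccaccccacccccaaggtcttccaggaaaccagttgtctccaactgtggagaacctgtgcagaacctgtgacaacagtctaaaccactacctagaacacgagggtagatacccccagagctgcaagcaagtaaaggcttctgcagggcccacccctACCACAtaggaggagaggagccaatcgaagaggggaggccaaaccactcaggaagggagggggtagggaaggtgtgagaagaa
*Gzma*, chr13:113100982-113101231, minus strand: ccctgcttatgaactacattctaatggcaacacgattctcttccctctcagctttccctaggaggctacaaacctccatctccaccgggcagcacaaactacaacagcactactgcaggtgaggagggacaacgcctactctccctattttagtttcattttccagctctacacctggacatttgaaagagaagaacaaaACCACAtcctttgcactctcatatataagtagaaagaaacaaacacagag

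The Runx core began 227 bases before the start of *Xcl1*, 83 before that of *Nkg7* and 50 before that of *Gzma*. It was found in these 3 genes and in none of the other 5 (0) with a promoter entry, and 14.1% of the 32851 RefSeq promoter windows hold it on either strand. The core is among 15 motifs searched on both strands and was picked for display after the matches were seen. The Ets core GGAAGT was found for *Xcl1*, *Cd3d* and *Cd3e* (19.7% of all windows) and the overlapping CAGGAAG for *Xcl1*, *Nkg7* and *Cd3e* (10.8%). TATAAA was found for *Foxp3* alone among the 8 genes (12.4%). The other 11 were the Ets form CCGGAA, the NFAT forms GGAAAC with TGGAAA and also GGAAAT, the TCF forms AACAAAG plus CTTTGAT, the cyclic AMP element TGACGTCA, the GATA forms GATAAG plus AGATAA, the STAT site TTCNNNGAA and the NF-kB site. Their matches ranged from 0 genes, for that Ets form, the cyclic AMP element and the NF-kB site, to 4 genes, for TGGAAA (18.6% of windows). A match is only the presence of these letters.

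All 9 genes were near the lower end of what was measured. Their medians over the 12 libraries were between 0.262 FPKM (*Cd8a*) and 1.72 FPKM (*Gzma*), and 7 were under 1 FPKM, while the median of the genes tested was 10.9 FPKM. FPKM scale the fragments of a transcript by its length and by the size of the library, so levels of different genes are compared per length. Differences between groups are log2 differences of FPKM + 1 from limma, which understate changes at these levels. A gene was tested if it reached 1 FPKM in at least 3 libraries. It was called where the p adjusted by Benjamini-Hochberg was under 0.05 and the fold change of FPKM + 1 was over 1.5. By that filter, 12775 genes were tested, among them 4 of the 9: *Cd3g*, *Nkg7*, *Gzma* and *Xcl1*. For *Cd3d*, *Cd3e*, *Cd4*, *Cd8a* and *Foxp3*, values come from a second fit of all 19241 genes above 0 in a library. The deposited values carry no counts, so the depth behind them is unknown. In whole tissue, fewer cells of a type and less RNA per cell cannot be told apart.

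The first question is how each diet moved these genes. Of the 4 tested, only *Xcl1* was called. It fell in CLE against HFD and in CLE against LU, and it rose in LU against ND. *Xcl1* passed the filter only through HFD and LU libraries, where it is high, and without the filter CLE against LU was not called (adjusted p = 0.148 by limma). That contrast was called in 2 of 17 other fits. In HFD against ND, 0 of the 4 genes were called higher and 0 lower, where 14.9% of all genes tested were called higher and 10.8% lower. By limma, 1 of the 4 (*Xcl1*) had an unadjusted p under 0.05 there. In CLE against HFD, 1 of 4 was called lower (background 10.1%) and 0 higher (6.33%). In LU against HFD, 0 of 4 were called in either direction (4.81% higher and 7.64% lower over all genes), and 0 had an unadjusted p under 0.05 in limma. In CLE against LU, 1 of 4 was called lower, and *Xcl1* was also the only gene called among all those tested (0.00783% lower and 0.0% higher). In CLE against ND, 0 of 4 were called (2.06% higher and 0.853% lower over all genes), and 1 had an unadjusted p under 0.05. In LU against ND, 1 of 4 was called higher (4.97%) and 0 lower (1.62%). In the test of any difference among the 4 groups, which called 41.4% of all genes tested, 1 of 4 was called.

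**Figure D1:**
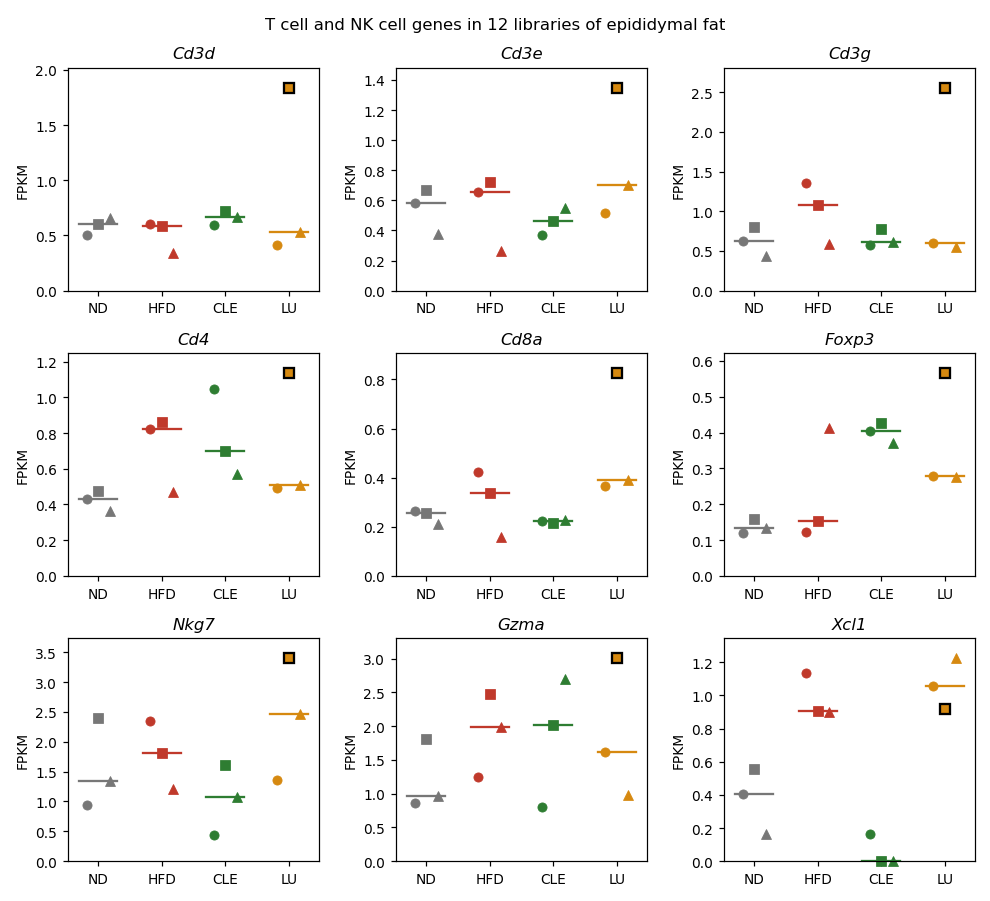
FPKM (y axis, linear from 0, a separate scale per gene) of the 9 genes in every library, by group on the x axis. Circles, squares and triangles are the 3 mice of a group in order of number, lines are group medians, and the point with a black edge is LU mouse 3, the highest library for 8 of the 9 genes. For *Xcl1*, the CLE libraries lie at 0.162, 0 and 0 FPKM and each HFD and LU library lies above 0.89.

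The CD3 chains pair with the T cell receptor and carry its signal, and of the 3 only *Cd3g* passed the filter. In order of mouse number, *Cd3d* was at 0.502, 0.599 and 0.657 FPKM in the ND group (mice 2, 3, 4), at 0.599, 0.589 and 0.338 in the HFD group (mice 12, 15, 18), at 0.592, 0.725 and 0.666 in the CLE group (mice 2, 4, 11), and at 0.412, 1.84 and 0.53 in the LU group (mice 2, 3, 8), an order kept for all genes here. The 4 groups overlapped, and LU mouse 3 was 2.53 times the next highest library. *Cd3e* was at 0.585, 0.667 and 0.374 FPKM for the ND mice, at 0.655, 0.723 and 0.263 for the HFD mice, at 0.367, 0.465 and 0.552 for the CLE mice, and at 0.513, 1.35 and 0.70 for the LU mice. The groups overlapped again, with HFD mouse 18 the lowest library for both chains and LU mouse 3 the highest. In LU mouse 3, 0.564 FPKM of *Cd3e* came from a form assembled by the authors, at most 0.000263 FPKM elsewhere. The annotated form alone was at 0.784 FPKM in LU mouse 3, beside 0.723 in HFD mouse 15.

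*Cd3g*, the third chain, passed the filter through HFD mice 12 and 15 and LU mouse 3. Its values were 0.621, 0.80 and 0.431 FPKM for the ND mice, 1.35, 1.08 and 0.585 for the HFD mice, 0.571, 0.782 and 0.607 for the CLE mice, and 0.603, 2.55 and 0.552 for the LU mice. HFD mouse 18 lay within the range of the ND and CLE mice, unlike the other two HFD mice. The log2 difference was 0.30 in HFD against ND (95% interval -0.29 to 0.88, adjusted p = 0.377 by limma) and -0.26 in CLE against HFD (-0.85 to 0.32, adjusted p = 0.488 by limma). The value in LU against HFD was 0.06, and -0.33 without LU mouse 3 in the fit of 19241 genes. Neither was called.

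The leukocyte gene *Ptprc*, which encodes CD45, is carried by T cells, NK cells and myeloid cells alike. It was between 9.28 and 13.7 FPKM in ND, between 47.6 and 58.2 in HFD, between 16.6 and 24.2 in CLE and between 23.1 and 26.7 in LU. It rose by 2.17 on the log2 scale in HFD against ND (SE 0.16, adjusted p = 1.4e-06 by limma), and fell by 1.40 in CLE against HFD and by 1.05 in LU against HFD. *Adgre1*, which encodes the macrophage protein F4/80, rose by 3.92 in HFD against ND (adjusted p = 6.6e-07 by limma). All 8 genes of the macrophage list and all 8 of the pan-leukocyte list were called higher there, beside 14.9% of all genes tested.

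Set against *Ptprc*, the CD3 chains were lowest in HFD. The sum of *Cd3d*, *Cd3e* and *Cd3g* per 100 FPKM of *Ptprc* was 16.8, 15.1 and 15.8 for the ND mice, and 4.47, 4.60 and 2.49 for the HFD mice. It was 9.22, 11.002 and 7.54 for the CLE mice and 6.16, 21.5 and 7.72 for the LU mice. Each HFD library was below every library of the other groups. This ratio was formed after the values were seen and is given with no test. The summed CD3 level itself ran from 1.46 to 2.07 FPKM in ND and from 1.19 to 2.61 in HFD, so the groups overlapped in the numerator, while *Ptprc* did not overlap.

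**Figure D2:**
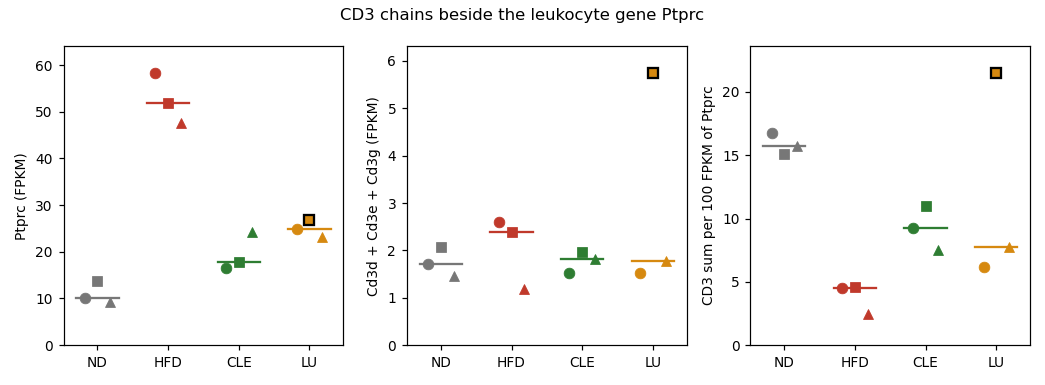
*Ptprc* (left, FPKM), the sum of *Cd3d*, *Cd3e* and *Cd3g* (middle, FPKM) and that sum per 100 FPKM of *Ptprc* (right) in every library by group, on linear axes from 0. Marks are as in the plot of the 9 genes, with lines at group medians: HFD is the highest group for *Ptprc* and the lowest for the ratio, at 2.49 to 4.60.

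Of the coreceptors, *Cd4* encodes the partner of MHC class II recognition. It was at 0.429, 0.477 and 0.365 FPKM for the ND mice, at 0.823, 0.86 and 0.472 for the HFD mice, at 1.04, 0.701 and 0.571 for the CLE mice, and at 0.494, 1.14 and 0.508 for the LU mice. Every CLE and every LU library was above every ND library, while HFD mouse 18 lay inside the ND range. Without assembled forms, ND mouse 4 was at 0.000151 FPKM and LU mouse 2, at 0.383, lay under ND mice 2 and 3. Without the filter, the log2 difference was 0.31 in CLE against ND (95% interval -0.04 to 0.65, adjusted p = 0.325 by limma) and 0.25 in LU against ND (-0.10 to 0.59, adjusted p = 0.415 by limma). Transcripts that code for no protein made up 34.8% of the *Cd4* value. *Cd4* is also known to be carried by some mouse dendritic cells, and the share of its FPKM that comes from T cells was not measured.

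*Cd8a* encodes the CD8 chain of cytotoxic T cells. Its values were 0.265, 0.258 and 0.212 FPKM for the ND mice, 0.425, 0.337 and 0.157 for the HFD mice, 0.225, 0.217 and 0.227 for the CLE mice, and 0.365, 0.826 and 0.391 for the LU mice. Every LU library was above every ND and every CLE library, and the HFD mice spanned both. The log2 difference of CLE against LU was -0.31 (95% interval -0.55 to -0.06), with an unadjusted p of 0.0196 and an adjusted p of 0.944 by limma without the filter, and it was -0.17 without LU mouse 3. In LU against ND it was 0.28 (0.04 to 0.53, adjusted p = 0.165 by limma without the filter). Forms assembled by the authors that share only part of the annotated splicing made up 75.7% of the *Cd8a* value. The plain annotated forms alone gave between 0.00168 and 0.237 FPKM per library.

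The ratio of *Cd4* to *Cd8a* was 1.62, 1.85 and 1.72 for the ND mice, 1.94, 2.55 and 3.01 for the HFD mice, 4.64, 3.23 and 2.52 for the CLE mice, and 1.35, 1.38 and 1.30 for the LU mice. LU, ND and HFD followed each other without overlap, and HFD and CLE overlapped. LU mouse 3, with the highest level of both genes, had a ratio close to those of the other LU mice. The ratio was formed after the values were seen and is given with no test. It rests on the assembled forms of both genes: without them *Cd4* was at 0.000151 FPKM in ND mouse 4 and *Cd8a* at 0.00168 FPKM in HFD mouse 12, and the order of the groups was not kept.

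*Foxp3* encodes the transcription factor that defines regulatory T cells. It was at 0.12, 0.16 and 0.133 FPKM for the ND mice, at 0.123, 0.152 and 0.414 for the HFD mice, at 0.405, 0.426 and 0.37 for the CLE mice, and at 0.278, 0.566 and 0.277 for the LU mice. Every CLE and LU library was above every ND library, HFD mice 12 and 15 were at the ND level, and HFD mouse 18 was at the CLE level. Without the filter, the log2 difference was 0.30 in CLE against ND (95% interval 0.08 to 0.52, unadjusted p = 0.0129 and adjusted p = 0.134 by limma) and 0.27 in LU against ND (0.05 to 0.49, adjusted p = 0.145 by limma). Against HFD it was 0.20 for CLE (-0.02 to 0.42, adjusted p = 0.203 by limma). At these levels *Foxp3* could not be called in any of the 6 comparisons. Its highest library (0.566 FPKM) against its lowest (0.12 FPKM) stays under the fold change of FPKM + 1 that a call needs. With FPKM + 0.1 and no filter, that limit does not hold. The log2 difference was then 1.08 in CLE against ND (adjusted p = 0.108 by limma). It was 0.95 in LU against ND (adjusted p = 0.109 by limma), and neither was called. In the test of any difference among the groups, the adjusted p of *Foxp3* was 0.113 by limma without the filter.

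HFD mouse 18 had the lowest *Cd3d*, *Cd3e* and *Cd8a* of all 12 libraries and the highest *Foxp3* of its group. Per 100 FPKM of the CD3 sum, *Foxp3* was at 7.03, 7.75 and 9.07 for the ND mice, at 4.72, 6.38 and 34.9 for the HFD mice, at 26.5, 21.6 and 20.3 for the CLE mice, and at 18.2, 9.87 and 15.6 for the LU mice. CLE and LU libraries were all above ND, with every CLE library above every LU library, and HFD held both the lowest and the highest value. This ratio too was formed after the values were seen and carries no test.

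**Figure D3:**
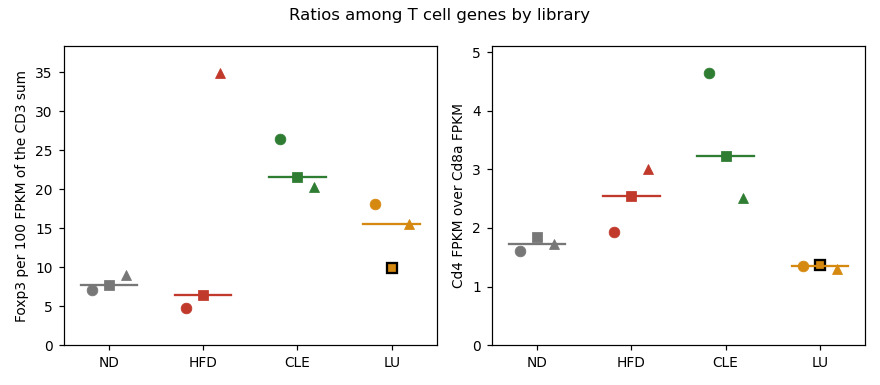
*Foxp3* per 100 FPKM of the summed CD3 chains (left) and *Cd4* FPKM over *Cd8a* FPKM (right) in every library by group, on linear axes from 0, with lines at group medians. The CLE mice lie between 20.3 and 26.5 on the left, where HFD mouse 18 is at 34.9. The LU mice lie between 1.30 and 1.38 on the right, under every other library.

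Genes whose libraries did not overlap between groups were counted over the 9 and over all 19241 genes above 0 in a library. For HFD against ND, 1 of 9 (*Xcl1*) did not overlap, against 45.8% of all genes. In CLE against HFD it was 1 of 9 (*Xcl1*), against 38.7%, and in LU against HFD 0 of 9, against 35.9%. The counts were 2 of 9 in CLE against LU (*Cd8a* and *Xcl1*), beside 8.11%, 2 of 9 in CLE against ND (*Cd4* and *Foxp3*), beside 19.8%, and 4 of 9 in LU against ND (*Cd4*, *Cd8a*, *Foxp3* and *Xcl1*), beside 23.2%.

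The cytotoxic granule genes were the most abundant of the 9 per length. *Nkg7* encodes a membrane protein of cytotoxic granules. It was at 0.933, 2.40 and 1.35 FPKM for the ND mice, at 2.34, 1.82 and 1.21 for the HFD mice, at 0.444, 1.61 and 1.08 for the CLE mice, and at 1.37, 3.40 and 2.47 for the LU mice. The groups overlapped, with CLE mouse 2 the lowest and LU mouse 3 the highest library. In CLE against LU, the log2 difference was -0.73 (95% interval -1.35 to -0.12), with an unadjusted p of 0.0237 and an adjusted p of 0.891 by limma. In CLE against HFD it was -0.47 (-1.09 to 0.15, adjusted p = 0.223 by limma).

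*Gzma* encodes granzyme A, a protease of cytotoxic granules. Its values were 0.869, 1.81 and 0.963 FPKM for the ND mice, 1.25, 2.47 and 1.99 for the HFD mice, 0.81, 2.02 and 2.71 for the CLE mice, and 1.62, 3.01 and 0.982 for the LU mice. The CLE mice alone spanned most of the range of the 12 libraries, and all groups overlapped. The log2 difference was 0.39 in HFD against ND (95% interval -0.27 to 1.05, adjusted p = 0.299 by limma) and -0.07 in CLE against HFD (-0.73 to 0.59, adjusted p = 0.888 by limma). *Gzma* was called in none of the 6 comparisons (0).

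*Xcl1* encodes the chemokine XCL1, also called lymphotactin. Its values were 0.407, 0.554 and 0.162 FPKM for the ND mice, 1.14, 0.906 and 0.898 for the HFD mice, and 1.06, 0.92 and 1.22 for the LU mice. It is listed at 0.162 FPKM in CLE mouse 2 and at 0 in CLE mice 4 and 11. HFD and LU overlapped each other and lay above every ND and CLE library, and CLE mouse 2 was level with ND mouse 4. The log2 difference was -0.91 in CLE against HFD (SE 0.12, adjusted p = 0.000157 by limma), -0.97 in CLE against LU (SE 0.12, adjusted p = 0.0394 by limma) and 0.60 in LU against ND (SE 0.12, adjusted p = 0.00762 by limma). The value for HFD against ND was 0.53 (SE 0.12, adjusted p = 0.00264 by limma), under the fold change of 1.5 in FPKM + 1. The means in FPKM were 0.98 in HFD and 0.375 in ND, and with a pseudocount of 0.1 the log2 difference was 1.28 and called. In LU against HFD the log2 difference was 0.06 (95% interval -0.19 to 0.32, adjusted p = 0.723 by limma). In CLE against ND it was -0.38 (-0.63 to -0.12, adjusted p = 0.0794 by limma). The HFD libraries are shared by the comparisons against HFD, and the CLE and LU libraries by those with each other and with ND, so these values are not separate tests.

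*Xcl1* entered the test only through HFD mouse 12 and LU mice 2 and 8, the 3 libraries over 1 FPKM, so it passed through groups in which it was high. Without the filter, the adjusted p by limma was 0.000517 in CLE against HFD, 0.0149 in LU against ND and 0.148 in CLE against LU, where the call was lost. The call of CLE against HFD was made in each of 16 other fits that gave a value, 9 of them without 1 library, with log2 differences from -2.96 (pseudocount 0.1) to -0.84. The call of CLE against LU was made in 2 of 17, without ND mouse 3 (adjusted p = 0.0293 by limma) and without ND mouse 4 (0.0144). It was lost without ND mouse 2 (0.0979), HFD mouse 15 (0.108), HFD mouse 18 (0.105), CLE mouse 2 (0.0743), CLE mouse 4 (0.365), CLE mouse 11 (0.0643) or LU mouse 3 (0.136), while the log2 difference stayed between -1.05 and -0.94. Without ND mouse 4, the call of LU against ND was lost at 0.48, under the fold change of 1.5 in FPKM + 1. Without ND mouse 3, HFD against ND was called at 0.63. The titles of LU mouse 2, CLE mouse 4 and ND mice 3 and 4 hold a letter R of unstated meaning that no HFD title holds. The FPKM column headers of the same libraries also share a number, of unstated meaning too, that the header of no other library holds. With that letter as a covariate, *Xcl1* stood at -0.89 in CLE against HFD (adjusted p = 0.000567 by limma). Leaving out HFD mouse 12, LU mouse 2 or LU mouse 8 took *Xcl1* below the filter, and no value was given.

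A listed 0 need not be a measured absence. *Scd1* is listed at 0 in 9 of the 12 libraries and reaches 10168 FPKM in another. Of the 512 tested genes with a median from 0.4 to 1 FPKM, 14 were at 0 in some library and 1, *Xcl1*, was at 0 in both CLE mouse 4 and CLE mouse 11. *Nkg7* and *Gzma* were at 1.61 and 2.02 FPKM in CLE mouse 4 and at 1.08 and 2.71 in CLE mouse 11, within the range of the other libraries.

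The receptor of the chemokine, *Xcr1*, was between 0.173 and 0.229 FPKM in ND, 0.257 and 0.475 in HFD, 0.229 and 0.438 in CLE and 0.296 and 0.418 in LU, so that every HFD and LU library was above every ND library. Without the filter, its log2 difference was 0.20 in HFD against ND (SE 0.07, adjusted p = 0.0602 by limma), 0.19 in LU against ND (adjusted p = 0.161 by limma) and -0.05 in CLE against HFD (adjusted p = 0.749 by limma), and no difference between *Xcr1* and *Xcl1* was tested. Of the 4 measured genes of the receptor and its dendritic cell, 3 were tested. Over all genes tested, 14.9% were called higher and 10.8% lower in HFD against ND, and 4.97% higher in LU against ND. *Clec9a*, which encodes a receptor for dead cells on those dendritic cells, was called higher in HFD against ND (0.62, adjusted p = 0.011 by limma) and in LU against ND (0.65). *Itgae*, which encodes the integrin CD103, was called lower in HFD against ND (-0.65, adjusted p = 0.00523 by limma), and 0 of the 3 were called in CLE against HFD, in LU against HFD or in CLE against LU. *Clec9a* was not called in HFD against ND without ND mouse 2, HFD mouse 15 or HFD mouse 18. In LU against ND it was not called without ND mouse 2 or 4 or any LU mouse. Over the 12 fits without 1 library, its difference ran from 0.49 to 0.79 in the first and from 0.52 to 0.78 in the second. *Itgae* was not called in HFD against ND without ND mouse 3 (-0.48).

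**Figure D4:**
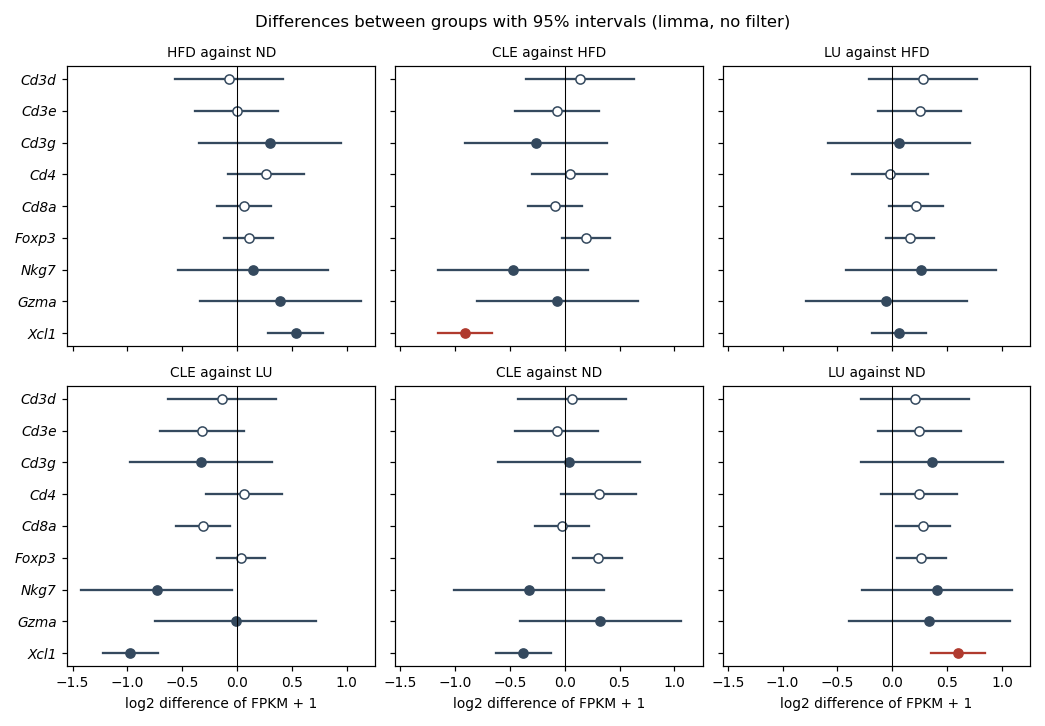
Log2 differences of FPKM + 1 (x axis) with 95% intervals for the 9 genes in the 6 comparisons, from the limma fit of 19241 genes without the filter. Filled points passed the filter of the main test, open points did not, and red marks the differences called in this fit: *Xcl1* at -0.91 in CLE against HFD and at 0.60 in LU against ND.

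LU mouse 3 stood apart. It was the highest of the 12 libraries for 8 of the 9 genes, all but *Xcl1*, while it was the highest for 6.69% of the 19241 genes. Among 48 other genes of the T cell and NK cell lists it was the highest for 27 (56.25%). They include *Lck* (3.12 FPKM, beside 2.83 in ND mouse 3), the kinase of the coreceptors, *Klrk1* (4.36 FPKM), which encodes the NK receptor NKG2D, and *Il2rb* (5.08 FPKM), a chain of the interleukin 2 and 15 receptors. It was the highest for 0 of the 9 B cell genes, 0 of the 8 pan-leukocyte genes and 0 of the 8 macrophage genes. For the 9 genes, the median log2 difference of LU against ND was 0.28 with all libraries (9 of 9 above 0, median of all genes 0.00) and 0.08 without this mouse (7 of 9 above 0). In CLE against LU the median went from -0.31 (7 of 9 below 0) to 0.07 (4 of 9 below 0). *Xcl1* kept its direction in both. The epididymis gene *Crisp1* was at 2.17 FPKM in LU mouse 3, 5.13 in ND mouse 4 and at most 1.23 in the other libraries. *Defb42*, of the same list, was at 0.922 FPKM in LU mouse 3 and at most 0.378 in the others, and *Adam7* was at 2.08 in LU mouse 8. *Lcn5* and *Spint4*, which mark the same organ, were at 0 in all. Of the epididymis genes above 0 in a library, LU mouse 3 was the highest for 1 and ND mouse 4 for 3. The part of any tissue carried along in these values was not tested.

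**Figure D5:**
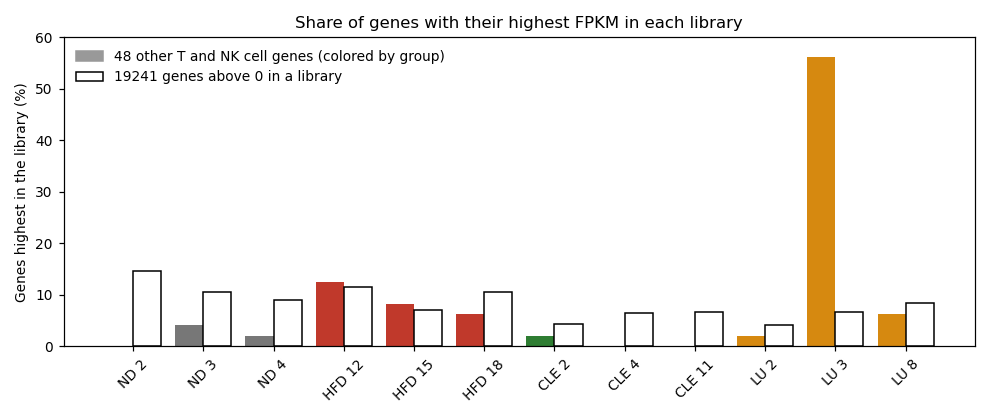
Share of genes (y axis, percent, linear from 0) that have their highest FPKM in each of the 12 libraries (x axis). Bars colored by group are 48 other T cell and NK cell genes, and white bars are the 19241 genes above 0 in a library: LU mouse 3 holds 56.25% of the first and 6.69% of the second.

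The wider lists place the 9 genes among their pathways, and the 9 are among their members. Of the 19 genes of the T cell receptor complex and its signaling, 11 were tested. Called higher in HFD against ND were 4 (14.9% over all genes tested), with 0 lower (10.8%). The 4 were *Ptpn22* (1.74), *Trac* (0.91), *Thy1* (0.81) and *Cd6* (0.62), with adjusted p between 2.65e-05 and 0.0296 by limma. *Trac* encodes the constant part of the receptor alpha chain and was at 1.69, 1.60 and 1.54 FPKM for the ND mice and at 3.40, 5.36 and 3.18 for the HFD mice. *Ptpn22*, a phosphatase that dampens receptor signals, is also known in myeloid cells, and *Thy1* also in stromal cells. In CLE against HFD, 2 were called lower (10.1% over all genes tested), *Ptpn22* (-1.27) and *Thy1* (-0.64), and in LU against HFD 1 (7.64%), *Ptpn22* (-0.92). In LU against ND 1 was called higher (4.97% over all genes tested), *Ptpn22* (0.82), and 0 in CLE against ND and in CLE against LU. Over all 19 genes, the median log2 difference without the filter was 0.09 in HFD against ND, where that of all genes was -0.01. Of the 19, 12 were above 0 and 7 below. When each library was left out in turn, *Trac* lost its call without ND mouse 2, 3 or 4 or HFD mouse 15. Over all 12 of these fits its difference ran from 0.72 to 1.02. *Cd6* reached 1 FPKM only in HFD mice 12, 15 and 18 (1.14, 1.19 and 1.03 FPKM). It thus entered the test only through the group where it was high. Of the 9 fits without 1 library that tested *Cd6*, the call was lost without ND mouse 4 (0.56, its lowest value). *Thy1* in CLE against HFD lost it without HFD mouse 15, HFD mouse 18 or CLE mouse 11. *Ptpn22* in LU against ND lost it without ND mouse 2 or LU mouse 8, and its 12 fits ran from 0.60 to 1.035.

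Of 19 genes of T cell subsets and regulation, 9 were tested. Between HFD and ND, 2 were called higher, *Il7r* (3.79, adjusted p = 1.23e-05 by limma) and *Il1rl1* (0.76), and 0 lower. Over all genes tested, 14.9% were called higher and 10.8% lower there. *Il7r*, the interleukin 7 receptor, ran from 0.572 to 1.67 FPKM in ND and from 23.9 to 33.7 in HFD, then from 1.76 to 8.66 in CLE and from 5.34 to 9.27 in LU, far from the pattern of the CD3 chains. It was the 1 gene of the list called in CLE against HFD (-2.60), in LU against HFD (-1.92) and in LU against ND (1.87). Over all genes tested, 10.1% were called lower in the first, 7.64% lower in the second and 4.97% higher in the third. In CLE against LU and in CLE against ND, 0 were called. The median over the 19 genes was 0.105 in HFD against ND, with 13 above 0 and 6 below. Among those below, *Tnfrsf18* ran from 4.53 to 5.57 FPKM in ND and from 3.02 to 3.74 in HFD. *Ikzf2* ran from 1.31 to 1.56 FPKM in ND and from 0.619 to 0.965 in HFD, and neither was called. *Il7r* and *Il1rl1* kept their calls between HFD and ND without each library.

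Of the 19 genes of NK cells and cytotoxic granules, 10 were tested. Between HFD and ND, 1 was called higher, *Ccl5* (0.89, adjusted p = 0.0318 by limma), which encodes a chemokine of activated T cells and NK cells, and 0 lower. Over all genes tested, 14.9% were called higher and 10.8% lower there. *Ccl5* was at 4.69, 9.42 and 5.44 FPKM for the ND mice, at 15.3, 12.4 and 10.1 for the HFD mice, at 4.39, 7.58 and 8.83 for the CLE mice, and at 9.23, 20.5 and 12.4 for the LU mice. *Gimap4*, a GTPase of lymphocytes, was called higher in CLE against HFD (0.62, adjusted p = 0.0102 by limma) and in LU against HFD (0.77). Over all genes tested, 6.33% and 4.81% were called higher in these. *Gimap4* ran from 13.7 to 15.5 FPKM in HFD, from 18.3 to 29.4 in CLE and from 23.1 to 30.4 in LU. In CLE against HFD without the filter, 3 of the 19 genes were above 0 and 16 below. The cells that carry *Gimap4* in this tissue were not measured. Without ND mouse 2, ND mouse 4, HFD mouse 12 or HFD mouse 15 *Ccl5* was not called, nor was *Gimap4* in CLE against HFD without HFD mouse 12 or CLE mouse 11. Over all 12 fits that left out 1 library, *Ccl5* ran from 0.71 to 1.15 and *Gimap4* from 0.45 to 0.78. *Xcl1* made the other calls, lower in CLE against HFD and CLE against LU and higher in LU against ND, and 0 were called in CLE against ND. In CLE against LU, 18 of the 19 had a log2 difference below 0, with a median of -0.12 beside -0.01 over all genes. The 48 other T cell and NK cell genes, drawn also from the T cell lists, had a median of -0.12 there with all libraries, with 7 above 0. Without LU mouse 3 their median was 0.007, with 25 above 0. The 19 genes alone were not summarized without that mouse.

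The cell types that could share the tissue were read beside these lists. The adipocyte list moved the other way to the leukocytes, with 5 of 6 genes called lower in HFD against ND, among them *Adipoq*, and *Lep* called higher. Over all genes tested, 10.8% were called lower and 14.9% higher there. Of the 9 B cell genes, 2 were tested. *Ighm*, the heavy chain of immunoglobulin M, was called higher in HFD against ND (0.98, adjusted p = 0.00369 by limma) and in LU against ND (0.76). Over all genes tested, 14.9% and 4.97% were called higher there. The call in LU against ND was lost in 8 of the 12 fits that left out 1 library. These were the fits without ND mouse 2, ND mouse 4 or any HFD or LU mouse. Over all 12 its difference ran from 0.52 to 0.94. Without the filter, 8 of the 9 B cell genes had a log2 difference below 0 in HFD against ND. Of the 8 epididymis genes, 1 was tested and 0 were called. Their summed level was 0.645 to 6.14 FPKM in ND, 0.374 to 0.522 in HFD, 0.210 to 0.408 in CLE and 0.139 to 3.67 in LU.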

How the data were processed

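RNA of epididymal fat was sequenced by the authors as paired-end reads of 100 bases from 12 libraries, 3 mice per group. The authors deposited FPKM per transcript from Cufflinks/Cuffdiff 2.2.1, with TopHat2 2.0.12, Bowtie2 2.2.3 and CASAVA 1.8.2 in the submitters' processing notes; the genome build is not given in the sources used here. A further 3 of the 15 FPKM columns belong to no sample listed and were left out. ND mouse 4 was read by inference from a column headed MD4. Columns that mark the authors' differentially expressed transcripts were not used.

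Known transcripts (77000 of 78786 found in GENCODE M21, GRCm38) and assembled forms of them were summed per gene. limma 3.58.1 in R 4.3.3 was fitted to log2(FPKM + 1) of 12775 genes with at least 1 FPKM in at least 3 libraries, all 12 libraries in 1 fit, with Benjamini-Hochberg adjustment over all genes in each contrast. The deposited table holds no counts, so the authors' test on counts was not repeated, and the depth per library is unknown. Tables and plots were made with Python 3.11.15, pandas 2.3.3, numpy 2.4.6 and matplotlib 3.10.9. The code was tested on simulated data.

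The 9 genes, the wider lists and the tests were chosen with earlier results of these data known. Named from the lists were up to 4 called genes per contrast with the largest differences, and *Xcr1*, *Ptprc* and *Adgre1*; other names were chosen after their values were seen. A gene of the wider lists is left out and not reported. Results were recomputed with no filter, a pseudocount of 0.1, median ratio scaling, quantile normalization, no assembled forms, the letter R in some titles as a covariate, a trend, the adjusted p alone, a replicate block and leaving out each library. A pseudocount of 0.1 without the filter, and LU mouse 3 left out without the filter, were chosen after seeing the data. Replicates are separate mice.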

Additional observations from a re-analysis of the deposited data

Results flagged for a closer look

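*Xcl1* was singled out because the responses to CLE and LU, both against the same HFD mice, differed in a direct test with the filter. Its log2 difference of FPKM + 1 was -0.97 in CLE against LU (SE 0.12, adjusted p = 0.0394 by limma with Benjamini-Hochberg adjustment), with 3 of 3 CLE mice under all 3 LU mice. The adjusted p ranged from 0.0144 to 0.655 over 17 other fits, and it was under 0.05 in 2 of them. *Xcl1* entered the test only through HFD and LU libraries, in which it was high, and without the filter on low values the adjusted p was 0.148 by limma. Groups of 3 were too small for a test of single outlying libraries.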

How the results depend on the processing

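Of the 4 genes tested, only *Xcl1* changed its calls. In CLE against LU, its 1 call lower became 0 calls with a pseudocount of 0.1 (adjusted p = 0.121 by limma), no filter (0.148), median ratio scaling (0.05), quantile normalization (0.232), no assembled forms (0.0711), the letter R as a covariate (0.0996), a trend (0.168), the replicate block (0.655), a pseudocount of 0.1 without the filter (0.0606) and LU mouse 3 left out without the filter (0.267). In LU against ND, its 1 call higher became 0 with median ratio scaling (log2 difference 0.58), quantile normalization (0.41), the letter R as a covariate (0.58), the replicate block (0.44) and a pseudocount of 0.1 without the filter. In HFD against ND, 0 calls became 1 with a pseudocount of 0.1, with and without the filter, and by the adjusted p alone, and in CLE against ND 0 calls lower became 1 (log2 difference -1.68) with a pseudocount of 0.1. Leaving out each library gave 0 to 1 calls in HFD against ND, CLE against HFD, CLE against LU, LU against ND and the test of any difference. In CLE against HFD, the 0 came only from the 3 fits without HFD mouse 12, LU mouse 2 or LU mouse 8. There *Xcl1* fell below the filter and was not tested. In each of the 9 fits without 1 library that tested it, *Xcl1* was called lower in CLE against HFD. The cause of the other changes was not tested.

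Uncalled differences of *Cd3g* and *Gzma* changed sign. *Cd3g* went to -0.33 in LU against HFD, 0.066 in CLE against LU and -0.03 in LU against ND with LU mouse 3 left out without the filter, and in CLE against ND to -0.064 with quantile normalization and -0.008 with the letter R. *Gzma* went in CLE against LU to 0.002 with median ratio scaling, 0.04 with quantile normalization and 0.26 with LU mouse 3 left out without the filter. Leaving out each library gave *Cd3g* -0.10 to 0.27 in LU against HFD and -0.049 to 0.116 in CLE against ND. It gave *Gzma* -0.29 to 0.23 in CLE against HFD, -0.33 to 0.18 in LU against HFD and -0.25 to 0.28 in CLE against LU, and *Nkg7* -0.039 to 0.37 in HFD against ND.

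Of 31 called differences of genes from the wider lists and of *Ptprc* and *Adgre1*, 16 were called in each alternative that gave a value and 12 lost their call in a fit without 1 library; none (0) changed sign.

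Mouse numbers shared between groups do not pair the mice, which were housed singly: deviations of same-numbered libraries correlated with r from -0.0989 to 0.189. With the replicate block over the 7 libraries that share a number, calls over all genes went from 842 to 407 in LU against ND and from 372 to 2 in CLE against ND. That fit held fewer libraries and none of HFD, so its counts differ from those of all 12 libraries in more than the block. Values without read counts, most under 1 FPKM, limit every statement here.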
